A study of Homo sapiens with 4 samples.

Results

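The mitochondrial ribosomal protein genes are the nuclear genes whose symbols begin with MRPL or MRPS, for the large and the small subunit of the ribosome inside mitochondria. They were taken by name, as the rows whose gene name is MRPL or MRPS followed by a number and at most 1 letter, with at least 50 counts summed over the libraries. All 78 rows with such a name passed this minimum, out of 58174 named genes and 59263 rows in all, and the lowest sum was 480 counts. Of these genes, 49 carried an MRPL symbol and 29 an MRPS symbol.

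The mitochondrial ribosome translates the few proteins that mitochondrial DNA encodes, all of them membrane subunits of the respiratory chain and the ATP synthase. Its RNAs come from mitochondrial DNA, whereas every one of its proteins is made in the cytosol from nuclear genes and imported. Some of these proteins have bacterial relatives and share their numbers, and others were added in the evolution of mitochondria.

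RNA was sequenced from 2 human pancreatic cancer cell lines, SW1990 and PANC-1, either unirradiated or given 10 Gy of X-rays, with 1 library for each of the 4 groups. SW1990 was grown in 1640 medium and PANC-1 in DMEM, so that line and medium cannot be told apart, and the time between radiation and harvest was not given in the sources used here. Each line is a single established culture, and without a second library no difference between 2 libraries has a replicate check. The libraries held 17939210 and 18388969 counts for unirradiated and irradiated SW1990, and 23451153 and 20154644 counts for unirradiated and irradiated PANC-1.

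Both lines carried the keratins of epithelial cells, with KRT8 at 38674 and 53301 counts in SW1990 and 28483 and 27779 in PANC-1. The epithelial adhesion gene CDH1 had 9906 and 14345 counts in SW1990, against 59 and 65 in PANC-1, and EPCAM had 7348 and 7552 against 108 and 113. PANC-1 was thus low in both adhesion markers. The leukocyte marker PTPRC and the endothelial marker PECAM1 had at most 2 counts in any library, the fibroblast collagen COL1A2 had none, and COL1A1 had 103, 165, 965 and 1315 counts in the order unirradiated SW1990, irradiated SW1990, unirradiated PANC-1 and irradiated PANC-1. Values for the 4 libraries are given in that order below.

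All mitochondrial ribosomal protein genes were detected in every library, the lowest value being 76 counts for MRPL34 in irradiated PANC-1. Their levels are given in FPKM, which corrects for transcript length. The median FPKM of the 78 genes was 25.1, 23.1, 21.8 and 21.9, against 9.37, 9.13, 8.84 and 8.9 for all named genes with an FPKM of at least 1. For the 77 cytosolic ribosomal protein genes it was 351, 337, 243 and 232. The 78 genes together took 0.338%, 0.332%, 0.313% and 0.314% of the counts on named genes. The 4 libraries therefore gave the family nearly the same share of the reads.

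The levels of single genes spread over more than an order of magnitude. By mean FPKM over the libraries, MRPS12, a protein of the decoding centre, stood first at 88.9, followed by MRPL37 at 61.1, MRPS34 at 53.8, MRPL20 at 53.0, MRPS15 at 52.8 and MRPL12, a protein of the stalk that meets translation factors, at 49.8. The first place of MRPS12 came from PANC-1, where its FPKM was 134 and 157, against 29.7 and 35.1 in SW1990. MRPS36 was last in every library, with an FPKM of 4.77, 3.32, 4.33 and 3.54. Its product is now assigned to the 2-oxoglutarate dehydrogenase complex rather than to the ribosome. Above it came MRPS14 at a mean FPKM of 6.42, MRPL50 at 7.01, MRPL34 at 8.60, MRPS23 at 9.07 and MRPS31 at 9.22. The order of the 78 genes was closer between libraries of the same line than between lines, with a Spearman rho across genes of 0.91 in SW1990 and 0.926 in PANC-1, against 0.681 to 0.699 for the 4 pairs across lines. These values describe genes within the same libraries, which share their depth, and genes are not independent replicates.

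**Figure D1:**
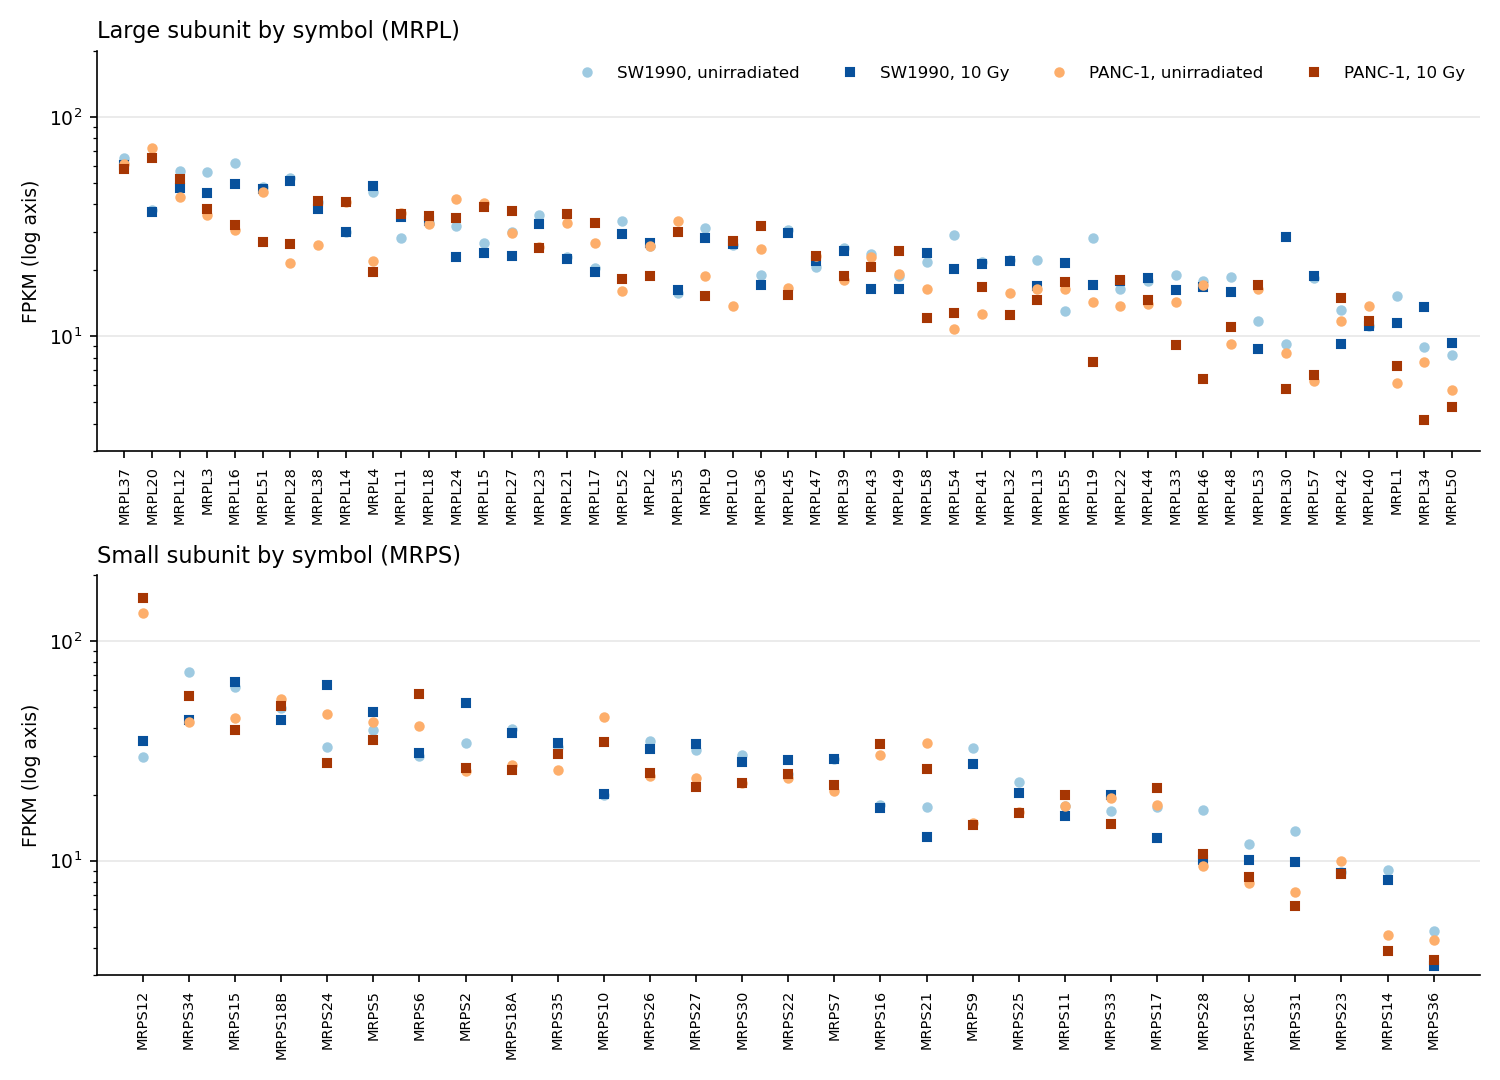
FPKM (log axis) of the 49 MRPL genes (top) and 29 MRPS genes (bottom) in each of the 4 libraries, ordered by mean FPKM, with 1 point per gene and library. MRPS12 in PANC-1 lies above every other point, at 134 and 157, and MRPS36 is lowest.

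The 44 genes that carry a bacterial number (L1 to L36 and S1 to S21, a grouping made after the values were seen) had a median FPKM of 28.1, 26.4, 26.2 and 26.8. The other 34 genes had 21.9, 20.9, 16.6 and 16.9. The genes with bacterial numbers were higher by median in all 4 libraries.

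The 3 paralogs of MRPS18 are related proteins that differ in place, since MRPS18A sits in the large subunit and the others in the small subunit. MRPS18B was the highest of them, with an FPKM of 49.4, 43.7, 54.7 and 50.5. MRPS18A had 39.7, 38.3, 27.4 and 26.0, and MRPS18C had 11.9, 10.1, 7.88 and 8.41. The order of the paralogs was the same in each library. MRPS30, which also lies in the large subunit despite its symbol, had an FPKM of 30.4, 28.0, 22.5 and 22.5.

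To find out how the family responded to radiation, the irradiated library of each line was set against its unirradiated library. Fold changes are ratios of TMM-scaled counts on the log2 scale, each with a 95% interval from the exact conditional binomial distribution, which covers counting error only. A gene counted as above 2-fold on its ratio alone, and was compared where its FPKM was at least 1 in either library.

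After radiation of SW1990, 34 of the 78 genes were higher and 44 were lower. Their median log2 fold change was -0.06, against 0.02 for all 15731 genes compared. Only MRPL30 and MRPL34, both proteins of the large subunit, were above 2-fold, and both were higher. With library totals and with FPKM ratios MRPL30 alone was above it. The 2 genes were 2.56% of the family, whereas 8.7% of all genes compared were above 2-fold and 4.49% were above it and higher. Above 1.5-fold were 7 genes (8.97%, against 19.6%), of which 5 were higher (10.4% of all genes) and 2 lower (9.12%). The interval left out no change for 17 genes that were higher (21.8%, against 27.4%) and 18 that were lower (23.1%, against 21.2%), together 44.9% against 48.6%. The quartiles of the family were -0.19 and 0.11.

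MRPL30 (ENSG00000185414, chr2:99181079-99197626, plus strand, GRCh38) had 349, 1525, 366 and 272 counts. Irradiated SW1990 stood apart, and the other 3 libraries lay close together. The log2 fold change was 2.14 (1.98 to 2.32) in SW1990 and -0.29 (-0.52 to -0.06) in PANC-1. On FPKM, which was 9.20, 28.3, 8.44 and 5.74, the change was 1.62 in SW1990 and -0.56 in PANC-1. AC079447.1, a gene model on the same strand that shares 564 exon bases with MRPL30, had 46, 3, 65 and 13 counts. How far reads were divided differently between these overlapping models was not tested.

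MRPL34 (ENSG00000130312, chr19:17292609-17306843, plus strand) had 128, 258, 168 and 76 counts. It was highest in irradiated SW1990 and lowest in irradiated PANC-1. The log2 fold change was 1.03 (0.72 to 1.35) in SW1990 and -1.01 (-1.42 to -0.61) in PANC-1, and 0.61 and -0.89 on FPKM. MRPL34 shares 223 exon bases with ABHD8 on the opposite strand, which had 50, 76, 253 and 251 counts. Whether reads were counted by strand was not given in the sources used here.

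MRPS24 (ENSG00000062582, chr7:43866558-43869893, minus strand), a protein of the small subunit, had 527, 1036, 972 and 492 counts. The lines moved in opposite directions here too, to 0.99 (0.84 to 1.15) in SW1990 and -0.84 (-1.0 to -0.69) in PANC-1. FPKM gave 0.95 and -0.73. URGCP-MRPS24, a readthrough model that shares 606 exon bases with it, had only 17, 28, 16 and 11 counts.

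Among the other genes of the family, MRPS2 was higher in irradiated SW1990 (1023 to 1655 counts, 0.71), as were MRPL55 (209 to 336 counts, 0.70) and MRPS33 (454 to 563 counts, 0.33). On the other side, MRPS34 had 1598 counts before and 988 after radiation, a log2 fold change of -0.68 (-0.79 to -0.56). MRPS28 followed at -0.62, MRPL43 at -0.49, MRPS31 at -0.49, MRPL54 at -0.47, and MRPL24 and MRPS21 each at -0.42. MRPS34 and MRPS28 were the 2 genes lower by more than 1.5-fold.

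In PANC-1, 28 genes were higher and 50 lower, with a median of -0.07 against -0.01 for all 15159 genes compared. Above 2-fold were 3 genes, all of them lower and all of the large subunit, namely MRPL19, MRPL46 and MRPL34. At this limit the calls depended on scaling. With DESeq2 size factors they were MRPL19, MRPL46 and, higher, MRPL10 (1.01), with library totals MRPL19 and, higher, MRPL10 (1.08), and with FPKM ratios MRPL46 alone. The 3 genes made up 3.85% of the family against 8.56% of all genes compared, or 3.92% counting only those that were lower. Above 1.5-fold were 6 genes (7.69%, against 21.0%), 5 of them lower (6.41%, against 9.92%) and MRPL10 higher (1.28%, against 11.0%). The interval left out no change for 11 genes that were higher (14.1%, against 26.7%) and 29 that were lower (37.2%, against 29.6%), together 51.3% against 56.3%. Scaling moved this balance, since with counts scaled to the library totals 40 genes were higher and the median was 0.01, while the median of all genes became 0.07.

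MRPL19 (ENSG00000115364, chr2:75646783-75690851, plus strand) had 962, 939, 1280 and 466 counts. Irradiated PANC-1 had the lowest value, while the SW1990 libraries were nearly equal. The log2 fold change was -1.32 (-1.48 to -1.17) in PANC-1 and -0.02 (-0.15 to 0.11) in SW1990. FPKM was 28.1, 17.1, 14.4 and 7.67, which gives -0.91 in PANC-1 and, unlike the counts, -0.72 in SW1990.

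MRPL46 (ENSG00000259494, chr15:88459476-88467419, minus strand) had 532, 527, 585 and 258 counts. Again irradiated PANC-1 alone was low. The log2 fold change was -1.04 (-1.26 to -0.83) in PANC-1 and 0.00 (-0.17 to 0.18) in SW1990. FPKM gave -1.42 in PANC-1 and -0.09 in SW1990. MRPL46 starts 34 bases from MRPS11, which is transcribed in the other direction and had 585, 594, 748 and 651 counts. MRPS11 gave 0.04 in SW1990 and -0.06 in PANC-1, so that this pair of ribosomal genes with a common start region differed in irradiated PANC-1.

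MRPL10 (ENSG00000159111, chr17:47823272-47831534, minus strand), which anchors the stalk, had 1020, 978, 630 and 1141 counts. The unirradiated PANC-1 library was low, and the other libraries were alike. The log2 fold change was 1.0 (0.85 to 1.14) in PANC-1, with a ratio of 1.99, and -0.04 in SW1990. The next rises by size in PANC-1 were MRPL38 at 0.50, MRPL49 at 0.37, MRPS34 at 0.35, MRPL27 at 0.34 and MRPL41 at 0.32. Lower in PANC-1 were MRPL33 at -0.60, MRPL2, a core protein at the peptidyl transferase centre, at -0.57, and MRPL58, a peptidyl-tRNA hydrolase that is part of the large subunit, at -0.50.

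**Figure D2:**
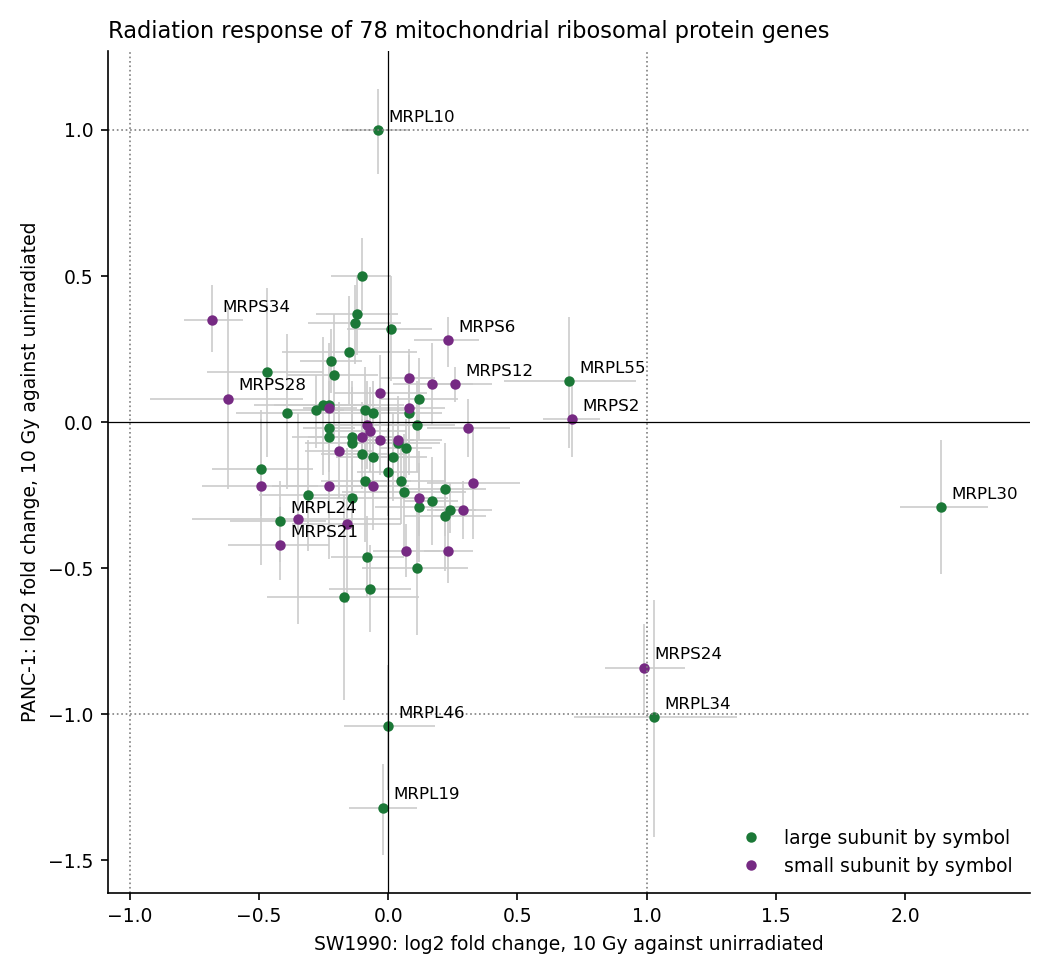
Log2 fold change after 10 Gy in SW1990 (x axis) and PANC-1 (y axis) for the 78 genes, with bars for the 95% counting intervals and dotted lines at 2-fold. Most points lie near 0 on both axes, with MRPL30 far right at 2.14, MRPL19 lowest at -1.32 and MRPL34 and MRPS24 in the lower right corner.

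To compare the lines, each gene's log2 fold change in PANC-1 was subtracted from that in SW1990. For 67 of the 78 genes the change was within 1.5-fold in both lines, a joint count for which no share over all genes is given here. Line by line, 8.97% of the family was above 1.5-fold in SW1990 and 7.69% in PANC-1. Of all genes compared in each line, 19.6% were above 1.5-fold in SW1990 and 21.0% in PANC-1. The difference was above 2-fold for 7 genes (8.97%, against 11.7% of the 13228 genes compared in both lines). Its counting interval left out 0 for 41 genes, 52.6% against 52.0%. In the difference of response the family as a whole was close to the background.

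The 7 genes were MRPL30, at a difference of 2.43 (2.15 to 2.72), MRPL34, at 2.03 (1.54 to 2.53), MRPS24, at 1.84 (1.62 to 2.05), MRPL19, at 1.3 (1.1 to 1.5), MRPL46, at 1.05 (0.77 to 1.32), MRPL10, at -1.04 (-1.23 to -0.85), and MRPS34, at -1.03 (-1.19 to -0.87). The first 5 were higher in SW1990 relative to PANC-1, and the last 2 lower. With 4 libraries and no repeat, these differences have no error beyond counting.

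**Figure D3:**
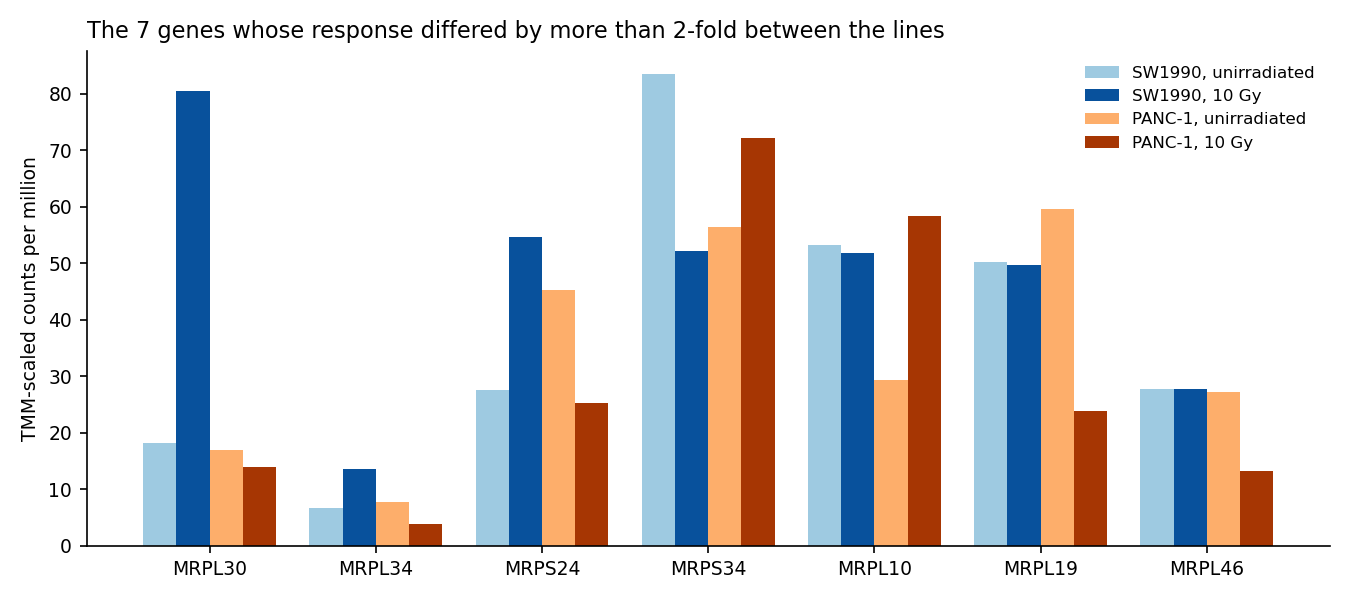
CPM (counts scaled by TMM to a common library size) in the 4 libraries for the 7 genes whose response differed by more than 2-fold between the lines, with 1 bar per library and no replicates. The bar of MRPL30 in irradiated SW1990 reaches 80.5, against 13.9 to 18.2 in the other libraries.

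Sorted by direction, 11 genes (14.1%, against 8.43% of all genes) were higher in SW1990 and lower in PANC-1 with intervals that left out no change in each line. Besides MRPL30, MRPL34 and MRPS24 these were MRPS5 (0.29 and -0.30), MRPL37 (0.24 and -0.30), MRPS27 (0.23 and -0.44), MRPS33 (0.33 and -0.21), MRPL22 (0.22 and -0.23), MRPL50 (0.22 and -0.32), MRPL4 (0.17 and -0.27) and MRPS15 (0.12 and -0.26). The opposite pattern was seen for 2 genes (2.56%, against 5.1%), MRPS34 (-0.68 and 0.35) and MRPL12 (-0.22 and 0.21). MRPS6 (0.23 and 0.28) and MRPS12 (0.26 and 0.13) were higher in both lines (2.56%, against 10.7%). MRPS21 (-0.42 and -0.42), MRPL24 (-0.42 and -0.34) and MRPL13 (-0.31 and -0.25) were lower in both (3.85%, against 9.25%). The values in these brackets are log2 fold changes in SW1990 and then in PANC-1. On FPKM the opposite directions were lost for MRPL37 (-0.11 and -0.07) and MRPL22 (0.13 and 0.39). These counts by direction rest on TMM scaling. Library totals moved the family's median from -0.06 to -0.11 in SW1990 and from -0.07 to 0.01 in PANC-1. Some intervals ended nearer to no change than these shifts, as for MRPS15 in SW1990 (lower end 0.01). In PANC-1 this held for MRPL30 and MRPS33 (upper ends -0.06 and -0.02).

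A fit over the 4 libraries with line and radiation as terms, which leaves 1 residual degree of freedom, called no gene for radiation. The spread it uses holds the difference of response between the lines. Genes that moved differently in the lines, such as MRPL30 (SE 0.63) and MRPL34 (SE 0.57), thus had a large error and could hardly be called. With edgeR's quasi-likelihood test, 0 of 18180 genes (0.0%), and 0 of the 78, had a Benjamini-Hochberg adjusted p under 0.05. At an unadjusted p under 0.05 were 1 of the 78 and 4.58% of all genes. That gene was MRPS21, with a log2 fold change of -0.42 (SE 0.16, edgeR adjusted p = 0.936). DESeq2 called 39 of the 9721 genes to which it gave an adjusted p (0.401%), and none of the 74 of the family among them.

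The lines themselves differed more than the treatments. Across both treatments, 23 of the 78 genes (29.5%, against 43.6% of the 18180 genes fitted) differed between SW1990 and PANC-1 at an edgeR adjusted p under 0.05. Of these, 9 were higher in SW1990 (21.4% of all genes fitted) and 14 lower (22.2%). The count was 12 without the filter on low counts (15.4%, against 19.8%) and 13 with DESeq2's Wald test (16.7%, against 35.2%). Nothing in the sources used here says how the cultures behind the libraries were separated. The p-values measure only the spread between these samples. That spread holds the difference of response between the lines together with any technical difference, and the fit cannot separate them.

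MRPS12 (ENSG00000128626, chr19:38930548-38933162, plus strand) had 692, 817, 4308 and 4279 counts. Both PANC-1 libraries were far above both SW1990 libraries. The log2 ratio of SW1990 to PANC-1 was -2.41 (SE 0.14, edgeR adjusted p = 0.00106). MRPS16 (551, 675, 1632 and 1463 counts), at -1.23 (SE 0.17), MRPS21 (513, 378, 1280 and 870 counts), at -1.15 (SE 0.16), and MRPS10 (916, 951, 2732 and 1830 counts), at -1.15 (SE 0.19), were also higher in PANC-1. So were MRPL35 at -0.92, MRPL15 at -0.87 and MRPS6 at -0.87.

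MRPL57 (ENSG00000173141, chr13:21176645-21179084, plus strand) had 912, 950, 405 and 375 counts. It was higher in both SW1990 libraries, at a log2 ratio of 1.36 (SE 0.17, edgeR adjusted p = 0.00483). Also higher in SW1990 were MRPL4 (1360, 1509, 864 and 652 counts), at 1.04 (SE 0.18), MRPL1, at 0.94 (SE 0.23), and MRPS9, at 0.85 (SE 0.16). MRPL54 had 393, 280, 195 and 199 counts and a ratio of 0.86 that missed the threshold (edgeR adjusted p = 0.0592).

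Within the unirradiated libraries alone, 40 genes were higher and 38 lower in SW1990, with a median of 0.04 against 0.00 for all genes, and 7 were above 2-fold (8.97%, against 40.8% of the 16626 genes compared). With library totals 52 genes were higher and with FPKM ratios 53, at medians of 0.26 and 0.29 where all genes had 0.19 and 0.21, and 12 were above 2-fold on FPKM. Higher (20.1% of all genes) were MRPL57 at 1.34, MRPL54 at 1.18 and MRPL1 at 1.15, and lower (20.7%) were MRPS12 at -2.47, MRPS10 at -1.41, MRPS16 at -1.40 and MRPS21 at -1.15. In the irradiated libraries, 47 were higher and 31 lower (60.3% and 39.7%, against 48.9% and 49.9% of all genes compared). The median was 0.20 against 0.0 for all genes, and 11 were above 2-fold (14.1%, against 40.3%). Of these, 7 were higher in SW1990 (8.97%, against 19.7%), led by MRPL30 at 2.53 and MRPL34 at 1.81. The other 4 were lower (5.13%, against 20.6%), led by MRPS12 at -2.34. MRPL10 was at -0.18 there, against 0.86 in the unirradiated libraries. The share above 2-fold was lower in the family than among all genes, which include many genes of lower FPKM.

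**Figure D4:**
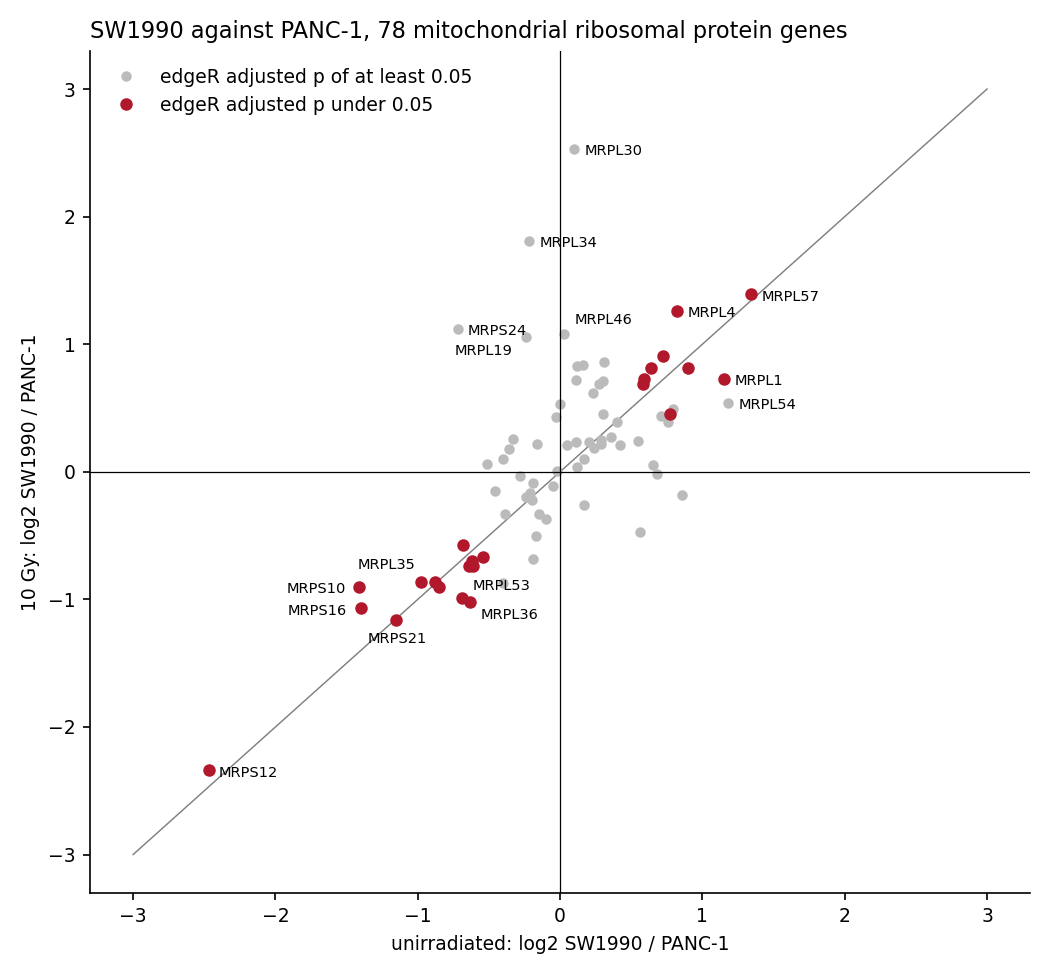
Log2 ratio of SW1990 to PANC-1 in the unirradiated (x axis) and irradiated (y axis) libraries for the 78 genes, with the diagonal of equal ratios. Red points are the 23 genes that edgeR called across both treatments, with MRPS12 at the lower left, while MRPL30 and MRPL34 lie far above the diagonal.

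The start regions of the genes that stood out are shown because several were shared with a neighbour or carried the letters of known promoter motifs. The sequences, credited to RefSeq on GRCh38.p14, run from 250 bases before to 50 bases after the RefSeq start, and capitals mark a motif. MRPS12 had the largest difference between the lines over both treatments (chr19:38930694-38930993, plus strand), MRPL30 the largest response (chr2:99180934-99181233, plus strand), MRPS24 moved in opposite directions (chr7:43869468-43869767, minus strand), and MRPL46 shares its start region with MRPS11 (chr15:88467339-88467638, minus strand).
MRPS12: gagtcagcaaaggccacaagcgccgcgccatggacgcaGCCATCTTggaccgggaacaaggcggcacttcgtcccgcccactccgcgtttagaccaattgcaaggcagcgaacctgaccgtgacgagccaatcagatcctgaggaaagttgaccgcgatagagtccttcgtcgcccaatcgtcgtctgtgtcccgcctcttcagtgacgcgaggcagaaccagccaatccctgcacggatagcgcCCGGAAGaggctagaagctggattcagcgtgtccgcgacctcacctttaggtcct
MRPL30: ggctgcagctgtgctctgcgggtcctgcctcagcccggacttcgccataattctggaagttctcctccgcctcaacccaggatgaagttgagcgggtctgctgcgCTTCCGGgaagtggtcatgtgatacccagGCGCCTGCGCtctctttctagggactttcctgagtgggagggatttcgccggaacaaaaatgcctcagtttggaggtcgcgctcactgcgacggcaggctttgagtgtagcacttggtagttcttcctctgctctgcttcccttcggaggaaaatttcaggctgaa
MRPS24: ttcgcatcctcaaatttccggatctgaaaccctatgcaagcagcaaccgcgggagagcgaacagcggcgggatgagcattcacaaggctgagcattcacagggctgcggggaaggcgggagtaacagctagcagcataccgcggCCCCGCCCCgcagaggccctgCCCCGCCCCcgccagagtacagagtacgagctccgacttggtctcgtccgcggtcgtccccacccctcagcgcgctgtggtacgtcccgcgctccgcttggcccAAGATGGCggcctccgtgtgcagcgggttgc
MRPL46: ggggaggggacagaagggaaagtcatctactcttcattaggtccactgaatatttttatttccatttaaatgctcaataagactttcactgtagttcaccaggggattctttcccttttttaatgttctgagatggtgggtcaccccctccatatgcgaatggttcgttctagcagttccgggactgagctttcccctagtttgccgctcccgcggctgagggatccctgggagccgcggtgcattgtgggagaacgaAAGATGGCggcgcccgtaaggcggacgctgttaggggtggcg
In MRPS12 the capitals are a YY1 motif and an ETS core, in MRPL30 an ETS core and an NRF1 motif with 1 base free, in MRPS24 a pair of SP1 GC boxes and a YY1 motif, and in MRPL46 a YY1 motif.

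The motifs were searched on both strands as CCGGAAG for the ETS core that GABPA reads, GCGCA and GCGC with 1 base of any kind between them for NRF1, AAGATGGC for YY1 and GGGGCGGGG for the SP1 GC box. RefSeq start regions were matched by symbol for 69 of the 78 genes, and the 64 within 1000 bases of the start in the deposited table were used. The ETS core was in 28 of them (43.8%, against 10.2% of all 34943 start regions), the YY1 motif in 19 (29.7%, against 2.89%), the SP1 box in 16 (25%, against 15.7%) and the NRF1 motif with 1 base free in 7 (10.9%, against 5.74%). With T as that base, the usual NRF1 letter, the motif was in 1 (1.56%, against 1.23%). MRPL34 and MRPL19, which stood out after radiation, held none of these letters in their windows. A match describes the letters only, and the regions of all genes include those of genes without a protein product.

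Some genes of the family start close to a gene on the other strand. A gene starting within 1000 bases and running in the other direction was found for 30 of the 78, in 29 pairs. In the unirradiated lines the log2 ratio of SW1990 to PANC-1 had the same sign in both partners for 20 of the 29 pairs, and Pearson's r across pairs was 0.56, or 0.45 without MRPS12. In the irradiated lines they matched in 15 of the 28 pairs in which both genes were compared, with r at 0.38, or 0.23 without MRPS12. After radiation the signs matched in 11 of 28 pairs in SW1990 and in 15 of 27 in PANC-1, with r at -0.32 and 0.04. LRRC46, the partner of MRPL10, went against it between the unirradiated lines, at -2.32 where MRPL10 had 0.86. Partners that overlap can share reads, and pairs are not replicates. MITD1, which starts 21 bases from MRPL30, had 307, 212, 320 and 234 counts and a log2 fold change of -0.52 in SW1990, where MRPL30 had 2.14. LIPT1, also near MRPL30, had 24, 85, 173 and 133 counts, with 1.84 (1.17 to 2.56) in SW1990 and -0.24 in PANC-1. C2orf15, another gene nearby, was at 0.30 (-0.06 to 0.66) in SW1990.

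The line difference of MRPS12 was shared by its surroundings, which were examined after that difference was seen. SARS2, the mitochondrial seryl-tRNA synthetase gene with which MRPS12 shares its start region and 349 exon bases on the opposite strand, had 303, 216, 1817 and 1523 counts. Of the 29 genes compared within 500000 bases, 27 were higher in unirradiated PANC-1, 26 of them by more than 2-fold, whereas 20.7% of all genes compared were higher in PANC-1 by that much. Their median log2 ratio of SW1990 to PANC-1 was -3.1. EdgeR called 26 of them higher and 2 lower in PANC-1 across both treatments. HNRNPL, an RNA-binding protein gene, was the one higher in PANC-1 by less than 2-fold, at -0.57, and RINL and LGALS4 went the other way at 2.36 and 2.45.

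**Figure D5:**
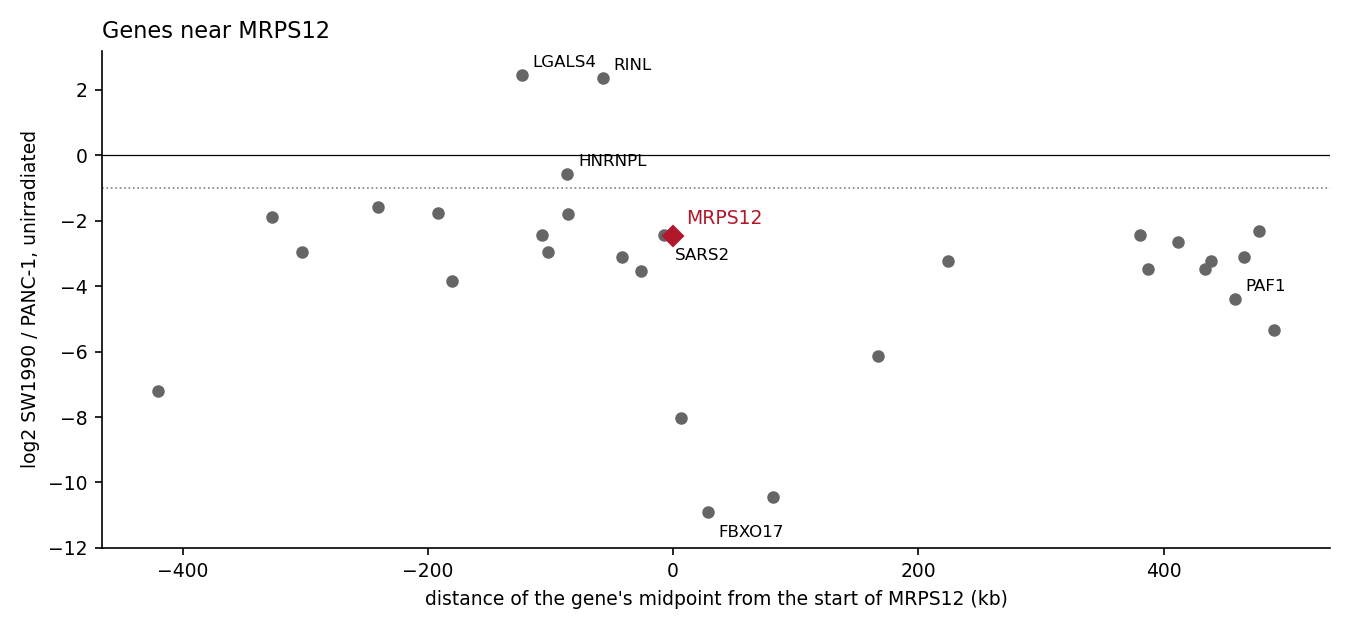
Log2 ratio of SW1990 to PANC-1 in the unirradiated libraries for 29 genes near MRPS12, against the distance of each gene's midpoint from the start of MRPS12 in kb, with MRPS12 as a red diamond and a dotted line at a ratio of 2 in favour of PANC-1. All but HNRNPL, RINL and LGALS4 lie below that line.

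Other genes of mitochondrial translation were followed in lists. Of the 5 subunits of the mitochondrial ribosome listed under other symbols (DAP3, PTCD3, AURKAIP1, CHCHD1 and GADD45GIP1), none was above 1.5-fold after radiation in either line. Among all genes compared, 19.6% were above 1.5-fold in SW1990 and 21.0% in PANC-1. DAP3, a GTP-binding protein of the small subunit, had 1489, 1146, 1507 and 1318 counts. Between the lines, edgeR called 2 of these subunits (40%, against 43.6% of all genes fitted), both higher in PANC-1, namely CHCHD1 at -1.35 and AURKAIP1 at -0.70.

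Of 25 genes for assembly of the ribosome and maturation of its RNA, 1 was above 2-fold in each direction in irradiated SW1990. This was 4.0% each way, against 4.49% higher and 4.21% lower among all genes compared. In PANC-1 none of the 25 was above 2-fold, against 8.56% of all genes compared. ERAL1, a chaperone of the small-subunit RNA, had 723, 1486, 1379 and 1273 counts, a log2 fold change of 1.06 (0.93 to 1.19) in SW1990 and 0.02 in PANC-1. GTPBP10, a GTPase of large-subunit assembly, had 509, 236, 424 and 356 counts, with -1.09 (-1.32 to -0.87) in SW1990 and -0.11 in PANC-1. The list's median was -0.04 in each line. Between the lines, edgeR called 9 of the 25 (36%, against 43.6% of all genes fitted), with 3 higher and 6 lower in SW1990.

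None of the 15 translation factors and none of the 17 mitochondrial aminoacyl-tRNA synthetases was above 2-fold after radiation in either line. Among all genes compared, 8.7% were above 2-fold in SW1990 and 8.56% in PANC-1. The medians of the factors and the synthetases were 0.08 and -0.01 in SW1990 and -0.12 and -0.02 in PANC-1. GUF1, an elongation factor gene, had 885, 1525, 886 and 742 counts, a log2 fold change of 0.80 in SW1990. MTIF3, an initiation factor gene, had 411, 353, 280 and 153 counts and -0.73 in PANC-1. Between the lines, edgeR called 5 of the factors (33.3%) and 7 of the synthetases (41.2%), against 43.6% of all genes fitted, with 4 of the factors higher and 1 lower in SW1990, and 3 of the synthetases higher and 4 lower. SARS2 was at -2.59 and HARS2, the histidyl-tRNA synthetase gene, at -1.49, while CARS2, the cysteinyl-tRNA synthetase gene, was at 1.37.

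Of the 10 genes of mitochondrial transcription, 9 were compared after radiation in SW1990 and 10 in PANC-1. None was above 1.5-fold, against 19.6% of all genes compared in SW1990 and 21.0% in PANC-1. Between the lines, edgeR called 2 of the 10 (20%, against 43.6%), both lower in SW1990. One of them, MTERF1, a transcription terminator gene, was at 0 counts in both SW1990 libraries and at 274 and 201 in PANC-1. Among 10 upstream regulators were the factors whose motifs were searched. GABPA, which binds the ETS core, had 867, 760, 935 and 755 counts, and YY1 had 3258, 3213, 2551 and 2421. SP1 had 3267, 2585, 4422 and 3511 counts, with log2 fold changes of -0.32 in SW1990 and -0.19 in PANC-1, and NRF1 had 582, 562, 677 and 489, with -0.03 and -0.33. MYC, a transcription factor gene, was the only regulator above 2-fold (10% of the list in SW1990, against 8.7%), with 94, 505, 78 and 45 counts and log2 fold changes of 2.44 (2.12 to 2.78) in SW1990 and -0.66 (-1.22 to -0.11) in PANC-1. ESRRA, a nuclear receptor gene, had 564, 490, 682 and 1105 counts and 0.83 in PANC-1. The 77 cytosolic ribosomal protein genes had medians of -0.04 in SW1990 and -0.16 in PANC-1. None of the 77 was above 2-fold, against 8.7% of all genes compared in SW1990 and 8.56% in PANC-1. The 13 protein genes of mitochondrial DNA, which this ribosome translates, had a median FPKM of 2910, 4050, 1880 and 1990. Their median log2 fold change was 0.32 in SW1990 and -0.24 in PANC-1, and edgeR called none of them for radiation. One of the 13 was above 2-fold, and it was higher in both lines (7.69%, against 8.7% of all genes compared in SW1990 and 8.56% in PANC-1). That gene was MT-ATP6, an ATP synthase subunit gene, with 17230, 74171, 17478 and 42514 counts and log2 fold changes of 2.12 in SW1990 and 1.42 in PANC-1. MT-ATP8, whose coordinates overlap those of MT-ATP6, was at 0.24 in SW1990 and -0.46 in PANC-1. The adjoining MT-CO3 was at 0.22 and -0.49. How reads were divided between these genes in each library was not tested.

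Counts and FPKM did not always give the same direction for the family. The sign of the response differed between them for 18 of the 78 genes in SW1990 and 14 in PANC-1. No share over all genes is given here, so these counts do not set the family apart. MRPL11, for example, was at -0.23 on counts and 0.31 on FPKM in SW1990, and MRPL42 at 0.07 and -0.52. Between the unirradiated lines, MRPL20 was at -0.39 on counts and -0.94 on FPKM. Exon bases shared with another gene of at least 50 counts were found for 32 of the 78 genes, 11 on the same and 23 on the opposite strand, with some on both. The 67 rows of processed copies of the family held 1673 counts, 0.651% of the number on the 78 genes. Whether reads were divided between these copies and the family was not tested.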

How the data were processed

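RNA from SW1990 and PANC-1 cells, unirradiated or given 10 Gy, was analysed from 1 library per group. According to the supplementary methods and the submitters' processing notes, the authors used CASAVA 1.8, FastQC 0.11.2, Trimmomatic 0.36, HISAT2 2.0, StringTie 1.3.3b, DESeq2 1.12.4 and GRCh38. The authors deposited a table with raw read counts and FPKM per library. The counting tool, strand setting and time after radiation were not given in the sources used here. The labels name depletion of ribosomal RNA, and the methods an mRNA kit. Loci without a gene name, 0.45% to 0.64% of the counts, were left out of library sizes and fits.

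Counts were scaled by TMM (edgeR 4.0.16, R 4.3.3). Log2 ratios were given with exact conditional 95% intervals (scipy 1.17.1), which cover counting error only, as reads are not independent molecules. A gene was compared where either library gave it an FPKM of 1 or more, with limits of 2-fold and 1.5-fold. Line and radiation were tested with edgeR's quasi-likelihood test on all named genes passing filterByExpr, with Benjamini-Hochberg adjustment. Both steps were tested on simulated data. The counts simulated for the fit had a smaller spread than these data (common coefficient of variation 0.2184) and the same response in both lines. That test therefore does not show how the fit performs at the spread found here. Library totals, DESeq2 1.42.0 size factors and Wald test, FPKM ratios (0.01 in place of 0), and no filters were tried as alternatives. Exon overlaps came from GENCODE 29, in which 77 of the 78 genes have the same coordinates.

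The genes and lists were chosen with earlier results of these data known. Named were genes above 2-fold after radiation, the 6 largest rises and falls per line among genes with at least 100 counts in both libraries, genes with intervals in the same or opposite directions in both lines, the 6 highest and lowest by mean FPKM, the 6 largest differences each way between unirradiated lines, the MRPS18 paralogs, and, per list, genes above 2-fold or up to 3 with the largest mean change. Directions across lines were limited to 6 genes each by this rule, and the other 5 of the 11 were named after their values were seen, as were MRPS11, MRPS30, MRPL11, MRPL42, MRPL20, CARS2, GABPA, YY1, NRF1 and the genes next to MRPL30 and MRPS12.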

Additional observations from a re-analysis of the deposited data

Results flagged for a closer look

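MRPL34 and MRPS24 were the genes of the family above or near 2-fold in opposite directions in the lines after radiation. The log2 fold change of MRPL34 in SW1990 minus that in PANC-1 was 2.03 (1.54 to 2.53, counting error only), from 128 to 258 counts in SW1990 and from 168 to 76 in PANC-1. The same difference was 1.84 (1.62 to 2.05) for MRPS24, from 527 to 1036 and from 972 to 492 counts. Each line moved one way with 1 library per group, and the difference between the lines was not tested.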

How the results depend on the processing

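Libraries could not be paired by replicate, since the labels give no replicate numbers and each group has 1 library. The fit for radiation held line as a term, so that it compared libraries within a line. Leaving out a library was not possible within a line for the same reason. In SW1990, the number of genes above 2-fold after radiation was 1 with library totals, 1 with FPKM ratios and 7 at the 1.5-fold limit, in place of 2. In PANC-1 it was 1 with FPKM ratios and 6 at 1.5-fold, in place of 3. Between the unirradiated lines, the median of the family was 0.26 with library totals and 0.29 with FPKM ratios, in place of 0.04, while the median of all genes became 0.19 and 0.21, and the number above 2-fold was 12 with FPKM ratios and 29 at 1.5-fold, in place of 7. Between the irradiated lines it was 35 at 1.5-fold, in place of 11. The number called between the lines over both treatments was 12 without the filter on low counts and 13 with DESeq2's Wald test, in place of 23. For settings other than the 1.5-fold limit, the cause was not tested. Among the other 52 values for the comparisons, counts moved by at most 1.5 times. Medians moved by less than the counting half-interval of 0.15 to 0.22. The limit for counts is wide. With library totals in PANC-1, it includes the shift from 3 to 2 genes above 2-fold and from 28 to 40 genes higher after radiation. It also includes the shift from 40 to 52 and 53 genes higher between the unirradiated lines. Depth limits the rarest genes most, as for MRPL34, whose interval in PANC-1 ran from -1.42 to -0.61.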
